A study of Rattus norvegicus with 23 samples.

Results

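GABA, glycine and glutamate are the main fast transmitters of the brainstem, and the receptors described here are the proteins that read them. The set is made of 45 genes of the 14217 genes with a single symbol on the array. A gene was taken when its symbol marks it as a subunit of a GABA-A, GABA-B, glycine, AMPA, kainate, NMDA or metabotropic glutamate receptor, and each gene is given by its main probe set, which is the brightest on average in these samples. The families held 16 GABA-A, 2 GABA-B, 4 glycine, 4 AMPA, 5 kainate, 7 NMDA and 7 metabotropic glutamate genes.

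RNA came from the area postrema, a small sensory organ at the caudal end of the fourth ventricle that lacks a full blood-brain barrier, and was hybridised to Affymetrix Rat Genome 230 2.0 arrays. The 23 arrays each hold RNA pooled from 5 male rats. The spontaneously hypertensive rat (SHR, an inbred strain that develops high blood pressure) and the Wistar Kyoto rat (WKY, the inbred strain usually set beside it) had 5 arrays each, from animals of 10 to 13 weeks without a treatment. Outbred Sprague Dawley rats of 10 to 12 weeks had 4 control arrays, 5 arrays after 48 h of fasting and 4 arrays after 72 h of dehydration. The label protocol text of 2 control arrays (1 and 2) lacks a closing phrase that the other Sprague Dawley arrays carry. The series asks, by its title, how area postrema transcripts differ in hypertensive, hungry and thirsty rats.

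GABA-A and glycine receptors are chloride channels of 5 subunits and mostly inhibit the neuron that carries them, while GABA-B receptors are dimers of Gabbr1 and Gabbr2 products that act through G proteins. AMPA and kainate receptors are cation channels of 4 subunits that carry fast excitation, NMDA receptors need glutamate together with glycine or D-serine and let in calcium, and metabotropic glutamate receptors signal through G proteins. In the area postrema and the neighbouring nucleus of the solitary tract, vagal afferents release glutamate, and local neurons release GABA.

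Each value is a signal intensity on a linear scale, as deposited, and differences are on the log2(signal + 16) scale, which shrinks the ratios of dim genes. All arrays had the same trimmed mean of 100, array medians were 39.81 to 44.48, and correlations between arrays of a group 0.9747 to 0.9849. Precision is limited by how few arrays each group has. Of the area postrema neuron markers, Calcr, Ramp3, Glp1r, Casr, Th and Dbh all had signals high enough to be tested, and Gfral and Tph2 were not analysed here. In a tissue sample fewer cells of a type and less RNA per cell cannot be told apart. A gene passes the threshold, and only then is said to have risen or fallen, where the two-sided limma test gave an adjusted p below 0.05 over the 18625 probe sets tested.

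Signals were high enough for testing in 26 of the 45 genes in the comparison of the strains and in 23 in the comparisons of Sprague Dawley rats. The 3 tested between the strains only were Gabrg3, Gabrq and Glra2. The other 19 genes lay in both fits below the 40th percentile of mean signal, which corresponds to a signal of 29.0 in the strain arrays and 27.4 in the Sprague Dawley arrays. They were 8 GABA-A genes (Gabra3, Gabra4, Gabra5, Gabra6, Gabrd, Gabrp, Gabrr1 and Gabrr3), 2 glycine receptor genes (Glra1 and Glra3), 2 kainate receptor genes (Grik1 and Grik3), 3 NMDA receptor genes (Grin2a, Grin2d and Grin3a) and 4 metabotropic genes (Grm2, Grm5, Grm6 and Grm7). Their mean signals over all 23 arrays ran from 3.0 to 23. The filter does not show that these transcripts are absent, since a dim probe set can also be one that binds its target poorly.

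Gabrd, whose product takes part in extrasynaptic GABA-A receptors, gave the brightest single array of these 19 genes, 66.0 in fasted array 2. The other 4 fasted arrays gave 18.8, 11.9, 42.9 and 15.1, so the fasted mean of 30.9 ± 23.1 (SD, n = 5) rests on arrays that differ widely. The SHR arrays read 14.1, 21.4, 22.4, 23.2 and 33.0 and the WKY arrays 15.0, 19.7, 11.2, 11.9 and 9.8 for Gabrd. Those ranges overlap, and the gene was not tested. Glra1, the principal alpha subunit of adult glycine receptors, read 10.9 ± 5.3 (SD, n = 5) in SHR, 7.7 ± 5.4 (SD, n = 5) in WKY, and 9.9 ± 5.0 (SD, n = 4), 6.9 ± 4.8 (SD, n = 5) and 10.0 ± 7.6 (SD, n = 4) in control, fasted and dehydrated rats. Grm5, a metabotropic receptor coupled to phospholipase C, read 14.1 ± 5.9 (SD, n = 5) in SHR and 11.2 ± 5.3 (SD, n = 5) in WKY.

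The strain comparison asks which receptor subunits differ between hypertensive and normotensive rats. Of 26 genes tested, 1 rose in SHR and 0 fell: Gria1, which encodes the GluA1 subunit of AMPA receptors. Over all probe sets 5.06% passed (2.17% higher and 2.88% lower), so a single call among 26 is near the share found on the whole array. The members' differences ran from -0.24 to 0.33, with a median of 0.04 beside 0.01 for all probe sets. 15 were above 0 and 11 below, where 51.7% of all probe sets were above 0. At an unadjusted p below 0.05 stood 6 genes, or 23.1% of those tested, beside 17.2% of all probe sets. The 95% interval of the difference lay within 1 log2 unit of 0 for 24 genes and within 0.5 for 22.

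**Figure D1:**
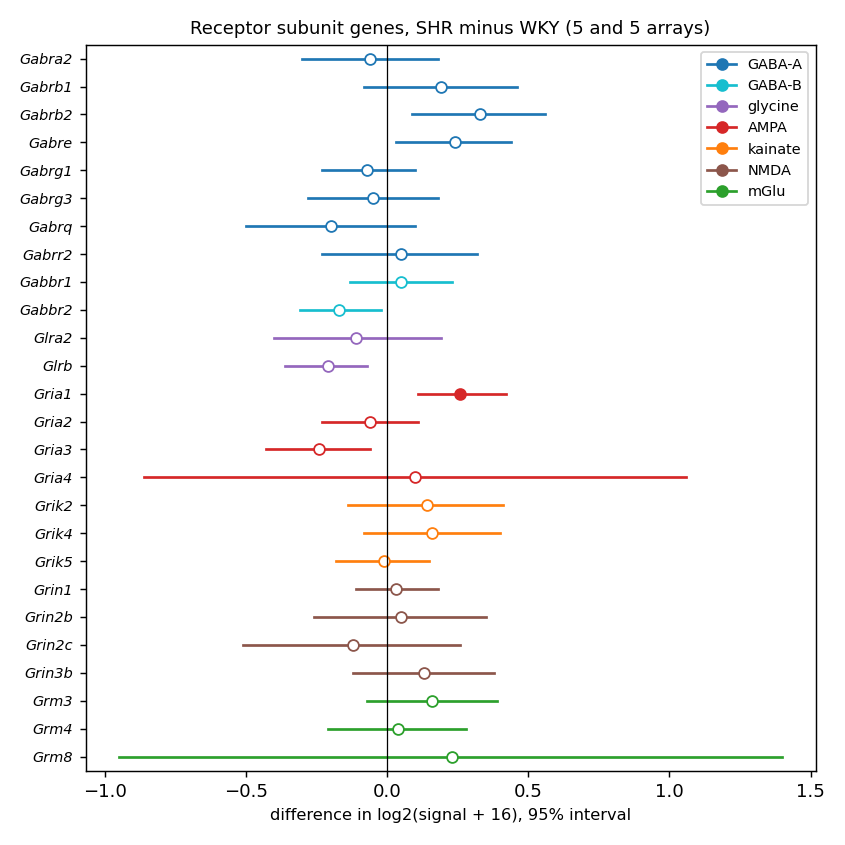
SHR minus WKY difference in log2(signal + 16) for the 26 receptor subunit genes tested, grouped by family, with 95% intervals from the limma fit of 5 against 5 pooled arrays; a filled point marks a gene past the adjusted threshold. Only Gria1 is filled, at 0.26, all points lie between -0.24 and 0.33, and Gria4 and Grm8 have the widest intervals.

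Gria1 signals in SHR were 251, 254, 238, 247 and 216, with a mean of 241 ± 15.4 (SD, n = 5). In WKY they were 196, 196, 194, 229.9 and 178, with a mean of 199 ± 18.9 (SD, n = 5). WKY array 4 lay above SHR array 5, and otherwise the SHR arrays were the higher ones. The difference of 0.26 (SE 0.0726, 95% interval 0.11 to 0.42) is 1.2-fold, with an adjusted p of 0.0441. The call was close to the threshold: leaving out any of SHR arrays 1, 2, 3 or 4 or WKY arrays 1, 2, 3 or 5 gave an adjusted p of 0.0976, 0.0859, 0.0813, 0.0903, 0.0901, 0.0868, 0.09 and 0.117 in that order, with differences from 0.23 to 0.27. Without SHR array 5 or WKY array 4 it passed, at 0.0265 and 0.0145.

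Markers of other cell types are given beside the Gria1 result. Of the neuron list 18 of 18 genes were tested. The list's mean, centred over the arrays, ran from -0.16 to -0.00 in SHR and from -0.06 to 0.01 in WKY, and 1 of its genes, Thy1, fell in SHR while 0 rose; no defining neuron marker was below the filter. With this mean as a covariate the Gria1 difference was 0.24 with an adjusted p of 0.202, so the size hardly moved and the call was lost. Of the microglia markers 6 of 7 were tested (Itgam was below the filter) and 3 fell in SHR (Aif1, C1qa and C1qc), and of the fibroblast and meninges markers 7 of 7 were tested and 3 fell (Col1a2, Igf2 and Fmod). In the direction of Gria1, Calb1 of the cerebellar list (3 of 7 tested, with Pcp2, Pvalb and Gabra6 below the filter) rose by 0.44 (adjusted p 0.00392). Prph of the motor neuron list (2 of 5 tested, with Chat and Isl1 below the filter) rose by 0.73 (adjusted p 0.000102), and both were without overlap. The other cerebellar markers tested, Cbln1 and Neurod1, did not pass (0.21 and 0.18, adjusted p 0.514 and 0.387). Slc5a7, the other motor neuron marker tested, differed by 0.03 (adjusted p 0.893). The cerebellar mean ran from -0.03 to 0.18 in SHR and from -0.19 to 0.01 in WKY, and the motor neuron mean from 0.04 to 0.14 and from -0.17 to -0.08. The microglia mean ran from -0.19 to 0.30 in SHR and from 0.32 to 0.45 in WKY, and the fibroblast mean from -0.67 to -0.28 and from -0.20 to 0.04. The part of these lists in the receptor results was not tested.

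The other AMPA receptor genes did not pass between the strains. Gria3, the GluA3 subunit gene, was the single member whose arrays did not overlap, beside 6.33% of all probe sets. Its SHR signals were 57.9, 64.4, 64.8, 52.8 and 63.4, all below the WKY signals of 66.1, 71.9, 81.7, 83.3 and 70.9. The difference was -0.24 (SE 0.0873, 95% interval -0.43 to -0.06, adjusted p 0.139), so the 2 subunits read opposite ways and only the one for Gria1 passed. Gria2, whose GluA2 product makes AMPA receptors nearly impermeable to calcium, differed by -0.06 (adjusted p 0.785) at its main probe set and by -0.17 (adjusted p 0.563) at its other one. Gria4, picked out after its values were seen, gave 17.1, 52, 114, 157 and 69.2 in WKY. Its interval of -0.86 to 1.06 therefore leaves even a 2-fold difference undecided at that probe set. A second Gria4 probe set gave 0.17 with a narrower 95% interval, -0.07 to 0.40 (adjusted p 0.487).

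**Figure D2:**
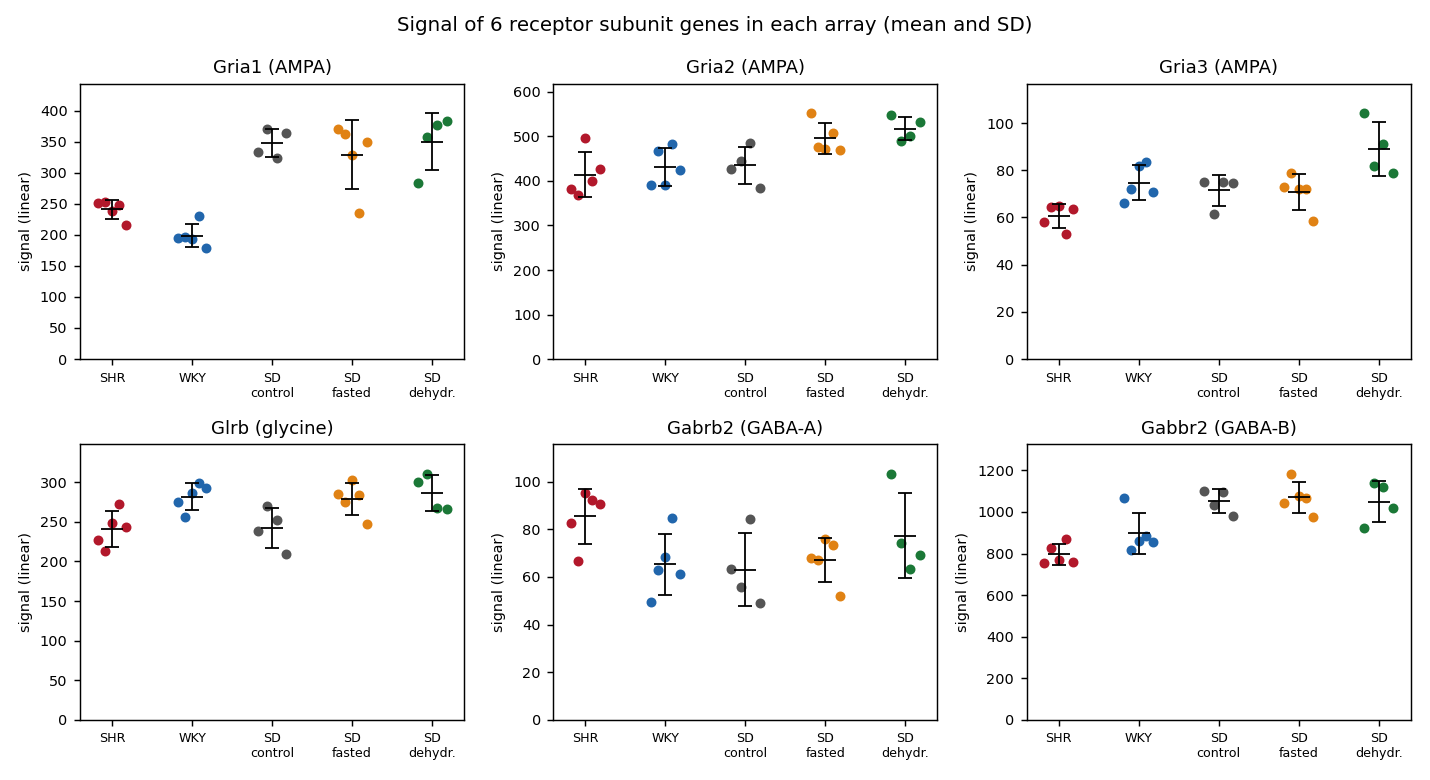
Signal of each pooled array (points, linear scale) with the group mean and SD (bars) for Gria1, Gria2, Gria3, Glrb, Gabrb2 and Gabbr2 in SHR, WKY and Sprague Dawley (axis label SD) control, fasted and dehydrated rats. For Gria1 all SHR arrays except number 5, at 216, lie above the highest WKY array, 229.9; for Gria3 the SHR arrays lie below the WKY arrays and the dehydrated arrays above the control and fasted ones.

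Among inhibitory receptors, the glycine receptor beta subunit and a GABA-A beta subunit came nearest to the threshold. Glrb encodes the subunit that anchors glycine receptors to gephyrin at the synapse. Its SHR signals were 228, 214, 249, 272 and 243 and its WKY signals 275, 256, 286, 299 and 293, so that only SHR array 4 reached into the WKY range. The difference was -0.21 (SE 0.0708, 95% interval -0.36 to -0.07, adjusted p 0.101). A second Glrb probe set gave -0.23 (SE 0.0946, adjusted p 0.22), from SHR signals of 46.2, 38.4, 50.7, 43 and 36 and WKY signals of 51.8, 52, 52.6, 59.1 and 47.9. Both probe sets read lower in SHR, and neither passed. Glrb passed without SHR array 4 (difference -0.26, adjusted p 0.0478) and with the ratio of 3' to 5' Gapdh signal as a covariate (-0.27, 0.0295). That log2 ratio, a sign of RNA quality, averaged 0.21 in SHR and 0.13 in WKY.

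Gabrb2, a beta subunit of the GABA-A receptor, read 82.5, 66.7, 95.3, 92.4 and 90.6 in SHR and 49.6, 62.8, 68.4, 84.6 and 61.1 in WKY. The groups overlap through SHR array 2 and WKY array 4. Its difference of 0.33 (SE 0.113, 95% interval 0.09 to 0.56) was the largest of the 26 and had an adjusted p of 0.12. Without SHR array 2 it was 0.40 (adjusted p 0.0436) and without WKY array 4 0.41 (0.0416), so here too 1 array decided the call. Gabre, the epsilon subunit gene, known in brainstem and hypothalamic neurons, differed by 0.24 (SE 0.0962, adjusted p 0.206), from 57.7 ± 5.1 (SD, n = 5) in SHR and 46.8 ± 6.6 (SD, n = 5) in WKY. Its other probe set, below the filter and not tested, read the other way, with overlapping arrays. It gave 7.5 ± 6.5 (SD, n = 5) in SHR and 20.9 ± 10.0 (SD, n = 5) in WKY.

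The 6 remaining GABA-A genes tested, Gabrb1, Gabra2, Gabrg1, Gabrg3, Gabrq and Gabrr2, differed by -0.20 to 0.19. Gabbr2, the GABA-B subunit that couples to G proteins, read 756, 826, 769.8, 868 and 760.4 in SHR and 1069, 817, 862, 885 and 854 in WKY. WKY array 1 stood highest, the ranges overlap, and the difference of -0.17 (SE 0.069, adjusted p 0.219) did not pass. Gabbr1, the subunit that binds GABA, differed by 0.05 (adjusted p 0.827), from means of 885 ± 112 (SD, n = 5) in SHR and 850 ± 81.4 (SD, n = 5) in WKY.

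No NMDA, kainate or metabotropic gene was among the 6 with an unadjusted p below 0.05. Grin1, the obligatory GluN1 subunit, read 145 ± 10.4 (SD, n = 5) in SHR and 142 ± 5.8 (SD, n = 5) in WKY, a difference of 0.03 with a 95% interval of -0.11 to 0.18. Grik5, a high-affinity kainate subunit, read 79.1 ± 5.2 and 80.1 ± 6.2 (SD, n = 5 each), a difference of -0.01 with an interval of -0.18 to 0.15. At the main probe sets these are the tightest bounds in their families. A second Grin1 probe set gave -0.29 with an interval of -0.72 to 0.14. With its probe sets averaged Grin1 differed by -0.13 (adjusted p 0.612). Grin3b, an NMDA subunit that binds glycine, had the smallest p of its family with 0.13 (adjusted p 0.653), Grik4, the other high-affinity kainate subunit, 0.16 (0.542), and Grm3, a metabotropic receptor that lowers cyclic AMP, 0.16 (0.513). Grin2b, the GluN2B subunit, differed by 0.05 and Grin2c, the GluN2C subunit, by -0.12, with intervals of -0.26 to 0.35 and -0.51 to 0.26.

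Fasting for 48 h is compared with the control to ask what hunger changes. Of 23 receptor genes tested 0 passed, beside 0.0215% of all probe sets (4 of 18625). At an unadjusted p below 0.05 stood 3 genes, or 13%, beside 7.19% of all probe sets, and 16 of the 23 differences were above 0, where 51% of all probe sets were. The median was 0.06 beside 0.00 over all probe sets. The smallest adjusted p was 0.54. The 95% interval lay within 1 log2 unit of 0 for 22 genes, all but Grm8, and within 0.5 for 17. Of the 18 neuron list genes tested, 12 differences were above 0, with a median of 0.06. The part of this list in the receptor differences was not tested.

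Grm8, a presynaptic metabotropic receptor that reduces transmitter release, had the largest difference in any comparison. The control arrays read 45.3, 51.7, 10.5 and 53.8 and the fasted arrays 87.9, 158, 116, 116 and 88.4 at the main probe set. All fasted arrays lay above all control arrays, as they did for 1 of 23 genes, beside 2.32% of all probe sets in either direction. The difference was 1.27 (SE 0.411, 95% interval 0.36 to 2.17, adjusted p 0.54), and 0.94 without control array 3 (adjusted p 0.631). A second probe set went the other way: 57.3, 48.2, 56.1 and 53.2 in controls and 52.4, 54.4, 42, 35.7 and 42.9 after fasting, a difference of -0.19 (SE 0.129, adjusted p 0.786). The 2 probe sets for Grm8 thus disagree in sign, and neither passed. At the brighter one single arrays of other groups also varied widely, from 9.1 to 134 within WKY and from 27.1 to 166 within dehydrated rats.

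**Figure D3:**
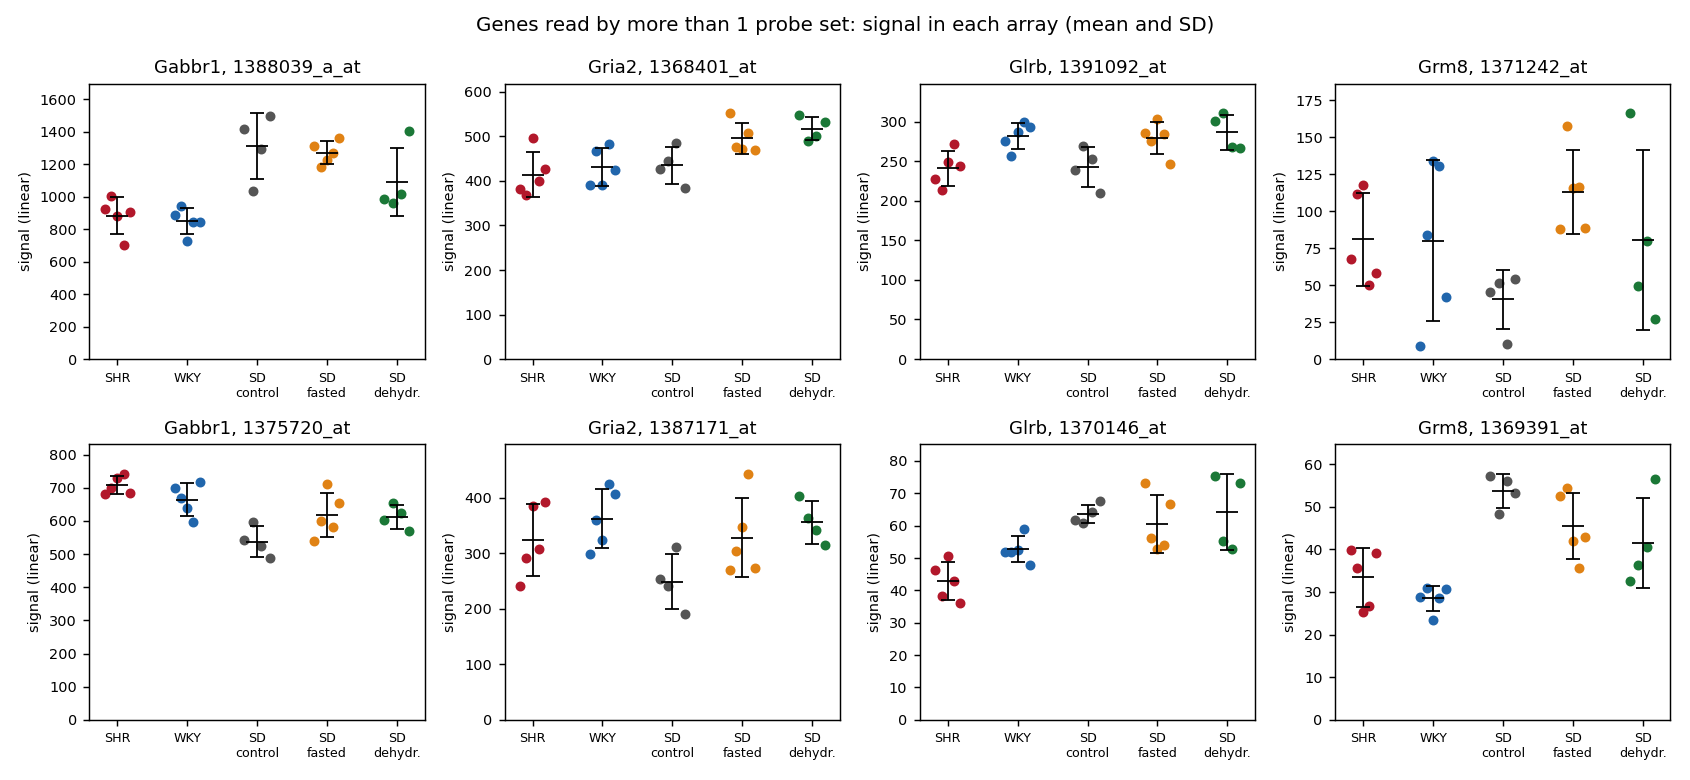
Signal per array at 2 probe sets each of Gabbr1, Gria2, Glrb and Grm8 in the 5 groups, with group mean and SD; each panel has its own linear scale, and levels are not compared between probe sets. Both Gria2 probe sets read higher in dehydrated than in control arrays, while the Grm8 pair and the Gabbr1 pair go opposite ways between control and treated rats.

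Gria2 and Glrb were the other 2 genes with an unadjusted p below 0.05 after fasting. Gria2 read 426, 445, 485 and 385 in controls and 552, 476, 472, 509 and 469 after fasting, so that control array 3 lay inside the fasted range. Its difference was 0.18 (SE 0.0749, adjusted p 0.63), and the second probe set gave 0.37 (SE 0.137, adjusted p 0.57). Glrb read 239, 269.5, 253 and 210.0 in controls and 285, 276, 303, 285 and 247 after fasting, a difference of 0.19 (SE 0.083, adjusted p 0.655), while its second probe set gave -0.06 (adjusted p 0.946).

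In the other families the smallest p after fasting belonged to Gabrr2, Gabbr2, Grik4 and Grin2c. Gabrr2, a rho subunit of the GABA-A class, read 21.6, 20.8, 18.5 and 28.4 in controls and 30.8, 23.7, 36.6, 23.9 and 45.6 after fasting, a difference of 0.31 (SE 0.186, adjusted p 0.741) at signals near the filter level. The control mean of Gabrr2, 22.3, lies below the filter level of 27.4, so it was tested only because the other groups are higher. Its difference is among those counted above 0. Gabbr2 differed by 0.02 with a 95% interval of -0.13 to 0.18. Grik4 differed by -0.23 (adjusted p 0.834) and Grin2c by 0.13 (0.872). Gria1, which had risen in SHR, differed by -0.09 (adjusted p 0.902), with fasted signals of 371, 362, 329, 234 and 350.4 beside control signals of 334, 371, 324 and 364. Without the low fasted array 4 that difference was 0.02. Grin1 differed by 0.05 and Grin2b by 0.06.

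Dehydration for 72 h is compared with the same control arrays to ask what thirst changes. Again 0 of 23 receptor genes passed, beside 0.166% of all probe sets (31 of 18625). At an unadjusted p below 0.05 stood 4 genes, or 17.4%, beside 11.7% of all probe sets, and 16 differences were above 0, where 47.6% of all probe sets were. The median was 0.05 beside -0.01 for all probe sets, and the range -0.51 to 0.67. The smallest adjusted p was 0.222. The interval lay within 1 log2 unit of 0 for 21 genes and within 0.5 for 14. The 2 that reached beyond 1 were Grm8 and Grin2b. Of the 18 neuron list genes tested, 13 differences were above 0, with a median of 0.13. The part of this list in the receptor differences was not tested.

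Gria2 and Gria3 read higher in every dehydrated array than in every control array, 2 of 23 genes, beside 6.68% of all probe sets in either direction. Gria2 read 548, 490.4, 502 and 531 after dehydration, with a mean of 518 ± 26.5 (SD, n = 4) beside 435 ± 41.7 (SD, n = 4) in controls. The difference was 0.25 (SE 0.079, 95% interval 0.08 to 0.41, adjusted p 0.222). The second Gria2 probe set read 254, 241, 312 and 189.9 in controls and 404, 363, 341 and 314 after dehydration, again without overlap, a difference of 0.50 (SE 0.144, 95% interval 0.20 to 0.81, adjusted p 0.179). Both Gria2 probe sets therefore read higher after dehydration, and neither passed. The neuron marker mean ran from -0.04 to 0.06 in controls and from 0.01 to 0.19 after dehydration, and with it as a covariate the Gria2 difference was 0.17 (adjusted p 0.515). The choroid plexus and ependyma mean ran from -0.14 to 1.30 in controls, -0.44 to 1.41 after fasting and 0.15 to 1.13 after dehydration. In the same order the motor neuron mean ran from -0.29 to 0.33, -0.24 to 0.39 and -0.15 to 0.64. The fibroblast mean ran from 0.20 to 0.46, 0.07 to 0.27 and 0.02 to 0.26. The part of these lists in the receptor differences was not tested.

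Gria3 read 104, 81.7, 91.3 and 79 after dehydration beside 75.1, 61.6, 74.9 and 74.6 in controls. The difference was 0.26 (SE 0.11, 95% interval 0.03 to 0.49, adjusted p 0.369). Gria1 read 283, 358, 377 and 383, a difference of 0.00 with an adjusted p of 0.998. Gria4 read 67.8 ± 12.3 (SD, n = 4) after dehydration and 54.4 ± 8.4 (SD, n = 4) in controls, with overlapping arrays. No AMPA gene passed, and 2 of 23 genes without overlap is near the share over all probe sets. These readings are therefore not taken as a contrast between subunits, which was not tested.

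**Figure D4:**
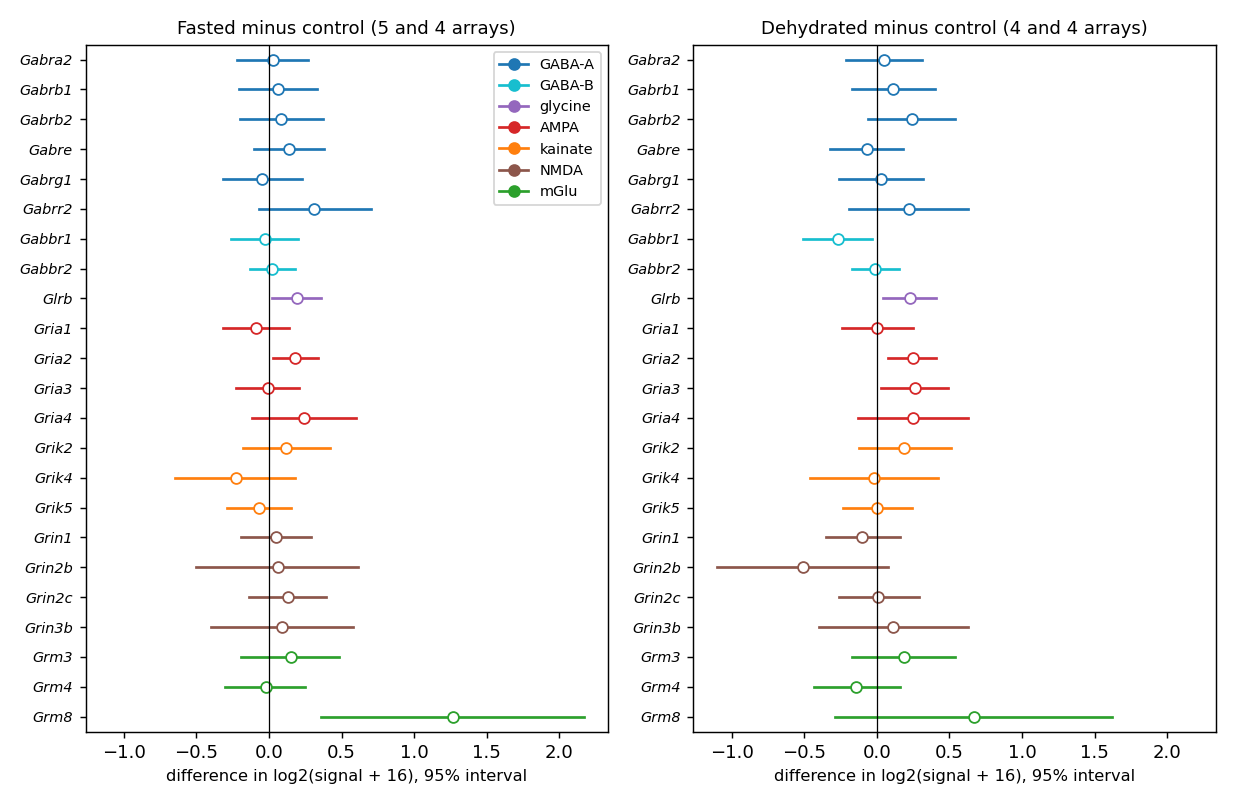
Fasted minus control and dehydrated minus control differences in log2(signal + 16) for the 23 receptor subunit genes tested in Sprague Dawley rats, with 95% intervals from 1 limma fit of 13 arrays; open points mark genes that did not pass the threshold. Every point is open, both sets of differences share the 4 control arrays, and Grm8 has the largest values, 1.27 and 0.67.

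Glrb read 300.4, 311, 268 and 266 after dehydration, a difference of 0.23 (SE 0.0875, 95% interval 0.04 to 0.41, adjusted p 0.318), with control array 2 reaching into that range. Its second probe set gave 0.00 (SE 0.122). Gabrb2 read 103, 74.2, 63.3 and 69.1 beside 63.2, 55.9, 84.3 and 49.1, a difference of 0.24 (adjusted p 0.533) with wide overlap.

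Gabbr1 gave opposite readings at its bright probe sets. At the main probe set the controls read 1420.5, 1033, 1294 and 1499 and the dehydrated arrays 984, 960.5, 1015 and 1407, a difference of -0.27 (SE 0.115, 95% interval -0.51 to -0.03, adjusted p 0.379). Without dehydrated array 4, the one that lay among the controls, it was -0.39 (adjusted p 0.102). At the second probe set the controls read 544, 597, 523 and 487 and the dehydrated arrays 604, 656, 623 and 569, a difference of 0.18 (SE 0.0848, 95% interval 0.01 to 0.36, adjusted p 0.406). The other 2 Gabbr1 probe sets gave -0.23 and 0.07. Gabbr2, its partner in the dimer, differed by -0.01 with an interval of -0.17 to 0.15.

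Grin2b read 4.6, 30.1, 48.2 and 39.2 after dehydration beside 57.9, 50.4, 37.2 and 36.8 in controls. The difference of -0.51 (SE 0.277, 95% interval -1.10 to 0.08, adjusted p 0.496) rested on dehydrated array 1, and without that array it was -0.16 (adjusted p 0.803). Grin1 differed by -0.10 (adjusted p 0.801), which became 0.04 without dehydrated array 2 and -0.23 without dehydrated array 4. Grik2, a low-affinity kainate subunit, differed by 0.19 (adjusted p 0.645). The control mean of Grik2, 26.2, lies below the filter level of 27.4, so like Gabrr2 it was tested only because the other groups are higher. Grm8 differed by 0.67 (SE 0.433, adjusted p 0.579) at its main probe set and by -0.29 (SE 0.136, adjusted p 0.41) at the other, again with opposite signs.

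Dehydrated and fasted rats were compared directly to see whether the deprivations differ from each other. Of 23 genes 0 passed, beside 0.0322% of all probe sets (6 of 18625), and 3 had an unadjusted p below 0.05 (13%, beside 10% of all probe sets). Differences above 0 numbered 14, where 47.3% of all probe sets were above 0, and the median was 0.02. Of the 18 neuron list genes tested, 11 differences were above 0, with a median of 0.06. The smallest adjusted p of the receptor genes was 0.406, for Gria3. Its fasted signals of 72.9, 79, 72.1, 72.1 and 58.4 lay below the dehydrated ones, though fasted array 2 and dehydrated array 4 were equal to 1 decimal. The difference was 0.27 (SE 0.105, 95% interval 0.05 to 0.49), and Gria3 was the 1 gene counted as without overlap, beside 3.23% of all probe sets. Gabbr1 differed by -0.23 (adjusted p 0.485), and by -0.36 without dehydrated array 4, -0.03 with the Gapdh ratio as a covariate and -0.04 with its probe sets averaged. That log2 ratio averaged 0.22 in fasted arrays (0.18 to 0.26), 0.41 in dehydrated arrays (0.21 to 0.68) and 0.34 in controls. Grin2b differed by -0.56 (adjusted p 0.491; -0.21 without dehydrated array 1), Gabre by -0.21 (0.572), Grik4 by 0.21 (0.772), Glrb by 0.04 (0.93) and Grm8 by -0.60 (0.678).

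Levels in SHR and WKY and in Sprague Dawley rats are given side by side without a test, since strain, label text and deposit cannot be told apart. For 0 of the 45 genes did all 13 Sprague Dawley arrays lie above or below all 10 SHR and WKY arrays. The share over all probe sets was not worked out, and 19 of the 45 genes lay below the filter. The count is therefore not read as a result about the receptors. Gria1 means were 348 ± 22.9 (SD, n = 4), 329 ± 55.2 (SD, n = 5) and 350.3 ± 45.9 (SD, n = 4) in control, fasted and dehydrated Sprague Dawley rats, above the 241 of SHR and the 199 of WKY, with fasted array 4, at 234, within the SHR range. At the main Gabbr1 probe set the Sprague Dawley means were 1312, 1271 and 1092 beside 885 and 850 in SHR and WKY, whereas at the second one they were 538, 618 and 613 beside 708 and 665. The order of the strains was thus turned between probe sets of 1 gene. Grin1, at 154 ± 9.7 (SD, n = 4), 160.2 ± 11.6 (SD, n = 5) and 146 ± 37.3 (SD, n = 4), and Grik5, at 81.0 ± 9.2 (SD, n = 4), 76.3 ± 6.3 (SD, n = 5) and 81.5 ± 12.8 (SD, n = 4), lay close to their SHR and WKY means.

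Several genes had more than 1 probe set that could be tested. In the strain comparison these were 6 genes, and the signs of their probe sets differed for 2, Gabbr1 and Grin1. In fasted minus control the signs differed for 4 of 6 (Gabbr1, Glrb, Grin1 and Grm8), and in dehydrated minus control for 2 of 6 (Gabbr1 and Grm8). Gria2 and Gria4 kept 1 sign over their probe sets in these 3 comparisons. Whether the probe sets read different transcripts of a gene was not tested.

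Many of these genes lie beside each other on the rat genome. In the gene order of the RefSeq annotation of GRCr8, 15 of the 45 genes had another member within 5 places and formed 6 clusters: Gabrb1 with Gabra4, Gabra2 and Gabrg1; Gabrg3 with Gabra5; Gabra6 with Gabrb2; Gabrr1 with Gabrr2; Gabre with Gabra3 and Gabrq; and Gria2 with Glrb. In 5 of the 6 clusters at least 1 member lay below the filter in at least 1 fit. The exception, Gria2 and Glrb, read higher by 0.25 and 0.23 after dehydration and by 0.18 and 0.19 after fasting at their main probe sets, with none past the threshold. With its probe sets averaged Glrb gave only 0.08 after dehydration and 0.02 after fasting, and both comparisons share the same control arrays. Between the strains Gria2 and Glrb differed by -0.06 and -0.21 at their main probe sets.

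Genes that work beside the receptors were taken as a list: enzymes and transporters of GABA, glycine and glutamate, and scaffold and auxiliary proteins. Of 40 tested, 3 rose and 4 fell in SHR, beside 2.17% and 2.88% of all probe sets, and 0 passed in each of the 3 Sprague Dawley comparisons. Homer2 and Gad2, among those called, entered the test only through the strain where they are high. The lists were also chosen with earlier results of these data known, so the counts are not read as an excess over all probe sets. The inhibitory partners (16 tested) held 3 that rose and 2 that fell with a median of -0.02, and the excitatory partners (24 tested) 0 and 2 with a median of -0.01, beside 0.01 for all probe sets. In the Sprague Dawley comparisons the medians ran from -0.03 to 0.05.

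Gabarapl1, a relative of the GABA-A receptor-associated protein that works in autophagy, rose by 0.68 (SE 0.0647, adjusted p 2.69e-06), from 710.2 ± 35.4 (SD, n = 5) in WKY to 1155 ± 109.6 (SD, n = 5) in SHR. Its other probe set read -0.43 (adjusted p 0.0592), so the sign depends on the probe set, and their mean did not pass (0.13, adjusted p 0.427). Homer2, a postsynaptic scaffold that binds group I metabotropic glutamate receptors, fell by 0.74 (adjusted p 0.000712), from 42.5 ± 3.6 to 19.2 ± 5.8 (SD, n = 5 each). Its SHR mean lies below the filter level of 29.0, so Homer2 was tested only because WKY is high, and a gene that enters in this way had to differ. With no filter the difference was -0.74 (adjusted p 0.00257). Homer2 was below the filter in the Sprague Dawley fit and in the strain fit when any WKY array was left out. Abat, the enzyme that breaks down GABA, fell by 0.45 (adjusted p 0.00125), from 208 ± 19.9 to 147 ± 11 (SD, n = 5 each), while its other probe sets gave -0.02 and 0.02 and the mean of all of them did not pass (adjusted p 0.254). In these 3 genes the SHR and WKY arrays did not overlap at the probe set that passed.

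Adarb1, the enzyme that edits the Gria2 transcript, fell by 0.43 (adjusted p 0.0136), from 309 ± 54.8 to 224 ± 19.0 (SD, n = 5 each), and its other probe set gave -0.15 (adjusted p 0.504). With the neuron marker mean as a covariate Adarb1 did not pass (-0.35, adjusted p 0.142), nor with its probe sets averaged (-0.07, 0.698). Slc6a9, which encodes a glycine transporter, fell by 0.84 (SE 0.204, adjusted p 0.0362), from 179 ± 28.3 to 97.2 ± 42.5 (SD, n = 5 each), with overlapping arrays. Its call was lost without any 1 of SHR arrays 1 to 4 or WKY arrays 1, 3, 4 or 5, at adjusted p from 0.0606 to 0.087, with the neuron marker mean as a covariate (-0.45, 0.163), with the Gapdh ratio as a covariate (-0.83, 0.11) and with its probe sets averaged (-0.87, 0.169). Its other probe set tested gave -0.20 (adjusted p 0.63). Gad2, an enzyme that makes GABA, rose by 0.46 (SE 0.13, adjusted p 0.0477), from 23.1 ± 6.3 to 37.7 ± 7.2 (SD, n = 5 each), without overlap. The WKY mean of Gad2 lies below the filter level, so it was tested only because SHR is high; with no filter the adjusted p was 0.0905, with a pseudocount of 1 it was 0.0551 and with array weights 0.0505. Without SHR array 3 or WKY array 1, 2, 3 or 5 the adjusted p was 0.0549, 0.0667, 0.0589, 0.113 and 0.0982. The seventh, Gphn, encodes gephyrin, the scaffold that Glrb binds, and is named because it completes the count: it rose by 0.27 (adjusted p 0.0494), and leaving out SHR arrays 1 to 4 or WKY arrays 1, 3, 4 or 5 gave adjusted p from 0.0515 to 0.121. With the neuron marker mean as a covariate the Gphn difference was 0.16 (adjusted p 0.399), and it passed in 6 of 22 alternatives.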

How the data were processed

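The deposited table holds 1 intensity per probe set and array, not logged, made by the authors in GCOS 1.2 (Affymetrix software), per the submitters' processing notes. How GCOS was set is not given in the sources used here. Groups were read from titles, and every column had a sample. log2(signal + 16) was fitted with limma 3.58.1 in R 4.3.3 (lmFit, eBayes with trend and robust), after leaving out 57 control probe sets and those with a mean below the 40th percentile. SHR and WKY used their 10 arrays, and 3 contrasts the 13 Sprague Dawley arrays in 1 model. Tests were two-sided, Benjamini-Hochberg adjusted over 18625 probe sets. Each array is a pool of animals, so p-values measure the spread between these pools. The probe annotation gave 1 symbol to 20832 of 31099 probe sets. Named are members past the threshold, the smallest p of each family in each comparison, a fixed set of genes, and up to 6 partner genes a comparison; others are said to be chosen after their values were seen. Members and lists were chosen with earlier results of these data known. Alternatives covered scaling, pseudocount, filter, variance model, covariates, probe sets, single arrays and only control arrays 3 and 4. The scripts were tested on simulated data. Python 3.11.15, pandas 2.3.3 and matplotlib 3.10.9 made tables and plots.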

Additional observations from a re-analysis of the deposited data

Results flagged for a closer look

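In 6 of the 105 gene and group combinations examined for the named genes, 1 array stood apart from the others of its group. This is near the 1 in 20 that chance gives, so the arrays are listed and not read as unusual. Gabbr1 read 1406.6 in dehydrated array 4 and 960.5 to 1015.3 in the other dehydrated arrays. Gria1 read 234.5 in fasted array 4 and 329.2 to 370.6 in the others. Gria3 read 61.6 in control array 2 and 74.6 to 75.1 in the others, and Grik4 read 48.2 in control array 4 and 43.0 to 43.5 in the others. The Grik4 step is small beside the range of its fasted arrays, 16.3 to 53.5. Grm5 read 21.3 in fasted array 1 and 4.8 to 8.6 in the others, all below the filter. Grm8 read 10.5 in control array 3 and 45.3 to 53.8 in the others.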

How the results depend on the processing

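The 3 Sprague Dawley comparisons gave 0 receptor genes past the threshold under every alternative run. Between SHR and WKY the count of 1 became 0 with no filter, with eBayes without trend and robust, with all 23 arrays in 1 model, with the neuron marker mean as a covariate and when each gene's probe sets were averaged; it became 2 with the Gapdh ratio as a covariate, and ran from 0 to 2 when single arrays were left out. Gria1 passed in 9 of 22 alternatives, with differences from 0.22 to 0.31. Its adjusted p was 0.07 with no filter, 0.0749 with the plain eBayes, 0.134 with all arrays and 0.0547 with averaged probe sets. Gria1 has a single probe set, so averaging left its own signals unchanged, and its difference stayed at 0.26. Which part of each changed fit moved the adjusted p was not tested. The replicate block left the counts at 1, 0, 0 and 0 (Gria1 0.0292, and Gphn lost at 0.0586). Same-numbered arrays correlated at a median of 0.04 and -0.02, and 4 of 10 and 2 of 13 correlated best with their own number, so the numbers are not taken to pair the arrays. No named gene reversed a call. With only control arrays 3 and 4, Grin3b moved to 0.38 (fasted minus control) and 0.41 (dehydrated minus control), and neither passed. Low signal kept 19 genes from being tested.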
